A study of Homo sapiens with 4 samples.

Results

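The genes of transforming growth factor beta (TGF-beta) signalling described here are its 3 ligands (TGFB1, TGFB2 and TGFB3), its receptors (TGFBR1, TGFBR2 and TGFBR3), 3 latent binding proteins (LTBP1, LTBP2 and LTBP3) and TGFBI, a secreted matrix protein named for its induction by TGF-beta. They were chosen by symbol: every probe set annotated to exactly 1 of these 10 symbols was taken, which gave 16 probe sets, and the 10 genes stand among 11963 genes with such a probe set. No intensity entered that rule, but the family was put forward with results of the same 4 arrays known, among them a lower TGFB2 with p73 shRNA. The counts and p-values below therefore describe these arrays and give no separate support. Total RNA of BJ-TE cells, which descend from the BJ line of human foreskin fibroblasts, was hybridised to Affymetrix expression arrays. A short hairpin RNA (shRNA) targeted p73, a transcription factor of the p53 family, or was the control named ns, and cells were collected at 100% or 40% confluence. The 4 groups were p73 shRNA at 100%, ns shRNA at 100%, p73 shRNA at 40% and ns shRNA at 40%, with 1 array each. All cells carried a hairpin, and the labels name 1 hairpin against p73 and do not say whether the cells were a clone or a pool, or whether the cultures were independent.

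TGF-beta ligands are secreted as latent complexes, in which the mature dimer stays bound to its own propeptide. LTBP1 and LTBP3 couple to that propeptide and anchor it to fibrillin in the matrix, whereas LTBP2 does not bind latent TGF-beta. Once released, the ligand binds TGFBR2, a serine/threonine kinase that activates its partner kinase TGFBR1, which phosphorylates SMAD2 and SMAD3. TGFBR3, or betaglycan, is a co-receptor without a kinase that presents ligand to TGFBR2 and matters most for TGFB2. In fibroblasts the pathway is known for driving matrix production and contractile genes.

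Upstream sequences are shown for the ligands and for LTBP1 only. TGFBR3, LTBP3 and TGFBI, which rose with confluence as LTBP1 did, are not shown. Each sequence is the stretch of 250 bases before an annotated transcription start (RefSeq, GRCh38.p14), 5′ to 3′ on the strand of the gene. Capitals mark matches on either strand to any of several short motifs. The letters searched for were TATAAA for the TATA box that positions many starts, and GGGCGG for the GC box bound by SP1 factors. The core of the cyclic AMP response element (CRE) was searched for as ACGTCA, the E-box as CACGTG and the AP-1 site as TGANTCA. All 10 genes matched the RefSeq table, with 22 windows. TGFB1 lies on the minus strand at chr19:41353923-41354172, TGFB2 on the plus strand at chr1:218345086-218345335, TGFB3 on the minus strand at chr14:75981996-75982245 and LTBP1 on the plus strand at chr2:32946703-32946952.
TGFB1: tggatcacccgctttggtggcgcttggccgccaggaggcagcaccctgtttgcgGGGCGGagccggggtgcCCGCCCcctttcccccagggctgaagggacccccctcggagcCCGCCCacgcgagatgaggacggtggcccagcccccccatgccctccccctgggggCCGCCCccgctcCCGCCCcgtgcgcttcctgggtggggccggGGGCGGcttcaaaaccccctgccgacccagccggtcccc
TGFB2: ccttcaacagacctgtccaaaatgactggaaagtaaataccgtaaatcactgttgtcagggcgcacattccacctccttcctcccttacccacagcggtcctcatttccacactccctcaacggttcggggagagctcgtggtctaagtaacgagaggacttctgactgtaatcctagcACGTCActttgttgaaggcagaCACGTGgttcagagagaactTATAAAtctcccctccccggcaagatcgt
TGFB3: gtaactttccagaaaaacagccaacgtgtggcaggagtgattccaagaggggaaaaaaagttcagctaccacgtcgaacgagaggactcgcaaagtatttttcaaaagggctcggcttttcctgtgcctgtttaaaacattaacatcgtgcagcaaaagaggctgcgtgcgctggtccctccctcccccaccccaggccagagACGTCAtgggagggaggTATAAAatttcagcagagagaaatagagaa
LTBP1: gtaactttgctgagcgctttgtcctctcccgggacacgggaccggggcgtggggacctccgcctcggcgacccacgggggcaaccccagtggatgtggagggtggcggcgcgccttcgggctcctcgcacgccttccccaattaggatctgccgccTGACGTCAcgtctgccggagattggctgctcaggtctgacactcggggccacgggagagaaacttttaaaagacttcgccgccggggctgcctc

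The windows of TGFB2 and TGFB3 each held a CRE core and a TATA box. In TGFB2 the CRE core began 71 bases, the E-box 49 bases and the TATA box 29 bases before the start. In TGFB3 the CRE core began 47 bases and the TATA box 30 bases before it. TGFB1 had neither and held 6 GC boxes, with a GC content of 76.8% against 50.4% for TGFB2 and 49.2% for TGFB3. The LTBP1 window held 2 overlapping matches to the CRE core, the core and its reverse complement. A second annotated TGFB3 start and the other 2 of LTBP1 had no CRE core and no TATA box. Of 35116 windows of the same length in the table, 7.10% held the CRE core, 10.7% the TATA box, 6.34% the E-box, 42.6% the GC box and 6.57% the AP-1 motif. A match to the p53 family half-site occurred in 5.57% of all windows and, among those of the 10 genes, in the second TGFB3 window alone. The windows of TGFBR3, LTBP3 and TGFBI held no CRE core, although these genes rose with confluence as LTBP1 did. The matches describe the letters of the windows and say nothing of binding or of behaviour on the arrays.

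The arrays were scaled alike, with trimmed means (2% removed from each end) between 500.1 and 500.2. The upper end of the range differed more: 1% of the probe sets exceeded an intensity of 13157 on the p73 shRNA array at 40%, and 10196 to 11420 on the other arrays. The labelled cell type was checked on marker genes: 15 of 16 fibroblast markers lay above the brightness filter used here, an average intensity of about 111, with 6 of 10 for smooth muscle and pericytes, 1 of 9 for epithelium, 0 of 6 for endothelium and 0 of 5 measured for blood. The target of the hairpin, TP73, had intensities of 2.04 (p73 shRNA) and 1.65 (ns) at 100% and of 2.09 (p73 shRNA) and 1.68 (ns) at 40%, all in the lowest 3.84% of their arrays, so it gave no check of the knockdown. Of the 10 TGF-beta genes, 8 passed the filter by their brightest probe set, and TGFB3 and TGFBR1 did not. Ratios are differences of log2(intensity + 11.6). Those averaged over both stages or both hairpins come from an additive limma model of all 4 arrays, in which adjusted p-values cover all 6759 genes that passed. Ratios within 1 stage or 1 hairpin rest on 1 array a group, and have no replicate and no test.

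**Figure D1:**
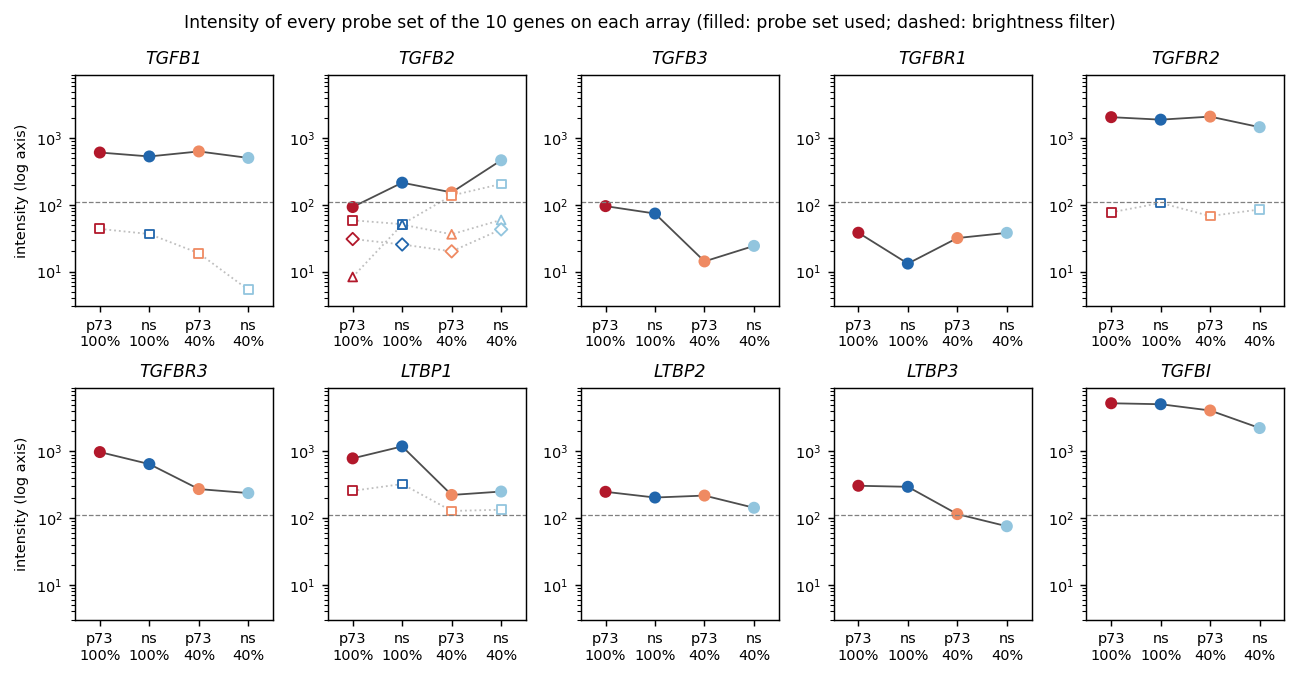
Intensity of each probe set of the 10 genes (vertical log axis) on the 4 arrays (horizontal axis: p73 and ns shRNA at 100% and at 40% confluence), with the probe set used for the gene filled, the others open and each with its own marker shape, and the brightness filter dashed. LTBP1, LTBP3 and TGFBR3 were brighter on both arrays at 100% confluence than on both at 40%, and the used TGFB2 probe set was dimmer on both p73 shRNA arrays than on both ns arrays; levels of different probe sets are not comparable.

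The p73 hairpin was set against the control hairpin to find genes that differ when p73 is targeted. TGFB2 fell with p73 shRNA, TGFBI passed the test as higher, and the other 6 genes above the filter did not pass it. Over all genes tested, 2.72% were called in either direction, 1.14% higher and 1.58% lower. The median average log2 ratio was 0.31 over the 8 genes and -0.003 over all genes. All 8 had the same direction at both stages, as did 58.5% of all genes, and the 2 stages share no array. RNA of whole cultures cannot tell a change in every cell from a change in the share of cells that express a gene.

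TGFB2 was the member that differed most between the hairpins. Its brightest probe set, 209909_s_at, had an intensity of 92.7 with p73 shRNA against 215 with ns shRNA at 100% confluence. At 40% it had 154 with p73 shRNA against 466 with ns shRNA. Both p73 shRNA arrays lay below both ns arrays, which held for 10.9% of all genes in that direction. The log2 ratio was -1.12 at 100% and -1.53 at 40%, and the average was -1.32 (SE 0.25, limma adjusted p 3.27e-05), the 11th lowest of 6759 genes. The call remained without the intensity trend of the model (limma adjusted p 0.000839) and after quantile normalization (0.00171). It was lost when no brightness filter was used (limma adjusted p 0.262) and when confluence was left out of the model (limma adjusted p 1.00).

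The other 3 TGFB2 probe sets lay below the filter and were not alike. On all 4 probe sets the p73 shRNA array was dimmer than the ns array at 40% confluence, with log2 ratios of -0.54 to -0.78 for the other 3. At 100% they diverged: 209908_s_at had an intensity of 8.28 with p73 shRNA, below the 11.6 added to every value, against 50.5 with ns shRNA. In contrast, 220407_s_at had 58.7 with p73 shRNA against 51.3 with ns shRNA (0.16), and 220406_at 30.7 against 25.4 (0.19). Values this dim carry little information on direction. When the log2 values of the 4 were averaged, TGFB2 fell below the filter and was not tested.

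Of 6 markers of smooth muscle and pericytes above the filter, 2 fell with p73 shRNA, the enteric smooth muscle actin ACTG2 and the calponin CNN1, and 4 did not pass, beside the 1.58% of all genes that fell. The summed intensity of the 10 markers was 2982 and 3820 on the p73 shRNA arrays at 100% and 40%, against 6207 and 7442 on the ns arrays. ACTG2 alone had 503 and 660 with p73 shRNA, against 3033 and 3685 with ns shRNA. Without it the sum was 2479 and 3160 with p73 shRNA, against 3174 and 3757 with ns shRNA. Of 15 fibroblast markers 2 rose and 2 fell, with a median log2 ratio of -0.03, against 1.14% higher and 1.58% lower among all genes. LUM averaged -1.34 and PDGFRA -0.58, while VIM averaged 0.51 and THY1 0.49. The part of these markers in the TGFB2 result was not tested.

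The other ligands did not follow TGFB2. TGFB1, the most widely expressed ligand, had intensities of 609 with p73 shRNA against 532 with ns shRNA at 100%, and of 632 against 505 at 40%. Both p73 shRNA arrays lay above both ns arrays by a small margin, and its average log2 ratio of 0.25 did not pass (SE 0.18, limma adjusted p 0.607). TGFB3 had 95.7 with p73 shRNA against 74.0 with ns shRNA at 100%, and 14.2 against 24.2 at 40%. Its log2 ratios of 0.33 and -0.47 pointed in opposite directions at the 2 stages, and as a dim gene it was not tested.

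Both receptors above the filter had positive ratios that did not pass the test. TGFBR2, the receptor that binds ligand first, had 2065 with p73 shRNA against 1894 with ns shRNA at 100% and 2104 against 1462 at 40%. The average log2 ratio was 0.32 (SE 0.15, limma adjusted p 0.297), and a dimmer TGFBR2 probe set pointed the other way, with -0.41 at 100% and -0.28 at 40%. TGFBR3 had 979 with p73 shRNA against 647 with ns shRNA at 100% and 273 against 238 at 40%, an average of 0.39 (SE 0.19, limma adjusted p 0.346). TGFBR1, the signalling kinase, lay below the filter, with 38.2 with p73 shRNA against 13.1 with ns shRNA at 100% and 31.8 against 38.0 at 40%. Values this dim carry little information on direction.

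None of the latent binding proteins passed either. Of the 8 genes above the filter, LTBP1 was the 1 besides TGFB2 with negative ratios at both stages: its brighter probe set had 788 with p73 shRNA against 1191 with ns shRNA at 100% and 223 against 251 at 40%. The log2 ratio was -0.59 at 100% and -0.16 at 40%, with an average of -0.38 (SE 0.19, limma adjusted p 0.361), and the second LTBP1 probe set gave -0.32 and -0.05. LTBP2 averaged 0.42 (SE 0.25, limma adjusted p 0.478) and LTBP3 0.29 (SE 0.26, limma adjusted p 0.717). Both p73 shRNA arrays lay above both ns arrays for LTBP2, as for TGFB1 and TGFBR2 by their brightest probe sets. This held for 3 of the 8 genes and for 10.5% of all genes in that direction. The dimmer TGFBR2 probe set lay the other way, with 77.2 (100%) and 67.9 (40%) with p73 shRNA below 107 and 85.3 with ns shRNA.

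TGFBI differed between the hairpins at 40% confluence and hardly at 100%. At 40% confluence its intensity was 4117 with p73 shRNA against 2245 with ns shRNA, a log2 ratio of 0.87. At 100% it was 5283 against 5110, a ratio of 0.05. The difference of -0.82 between the stages was not tested. The average of 0.46 passed narrowly (SE 0.14, limma adjusted p 0.0425). That error was the spread at its brightness, and TGFBI's own difference between the stages had no weight in it. The call was lost under 6 of 9 alternative settings. Among them were quantile normalization (limma adjusted p 0.144) and the model without the intensity trend (limma adjusted p 0.379). The average after quantile normalization was 0.44, beside 0.46. TGFBI is bright, and the upper end of the intensity range was highest on the p73 shRNA array at 40%. The part of that array in the result was not tested.

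**Figure D2:**
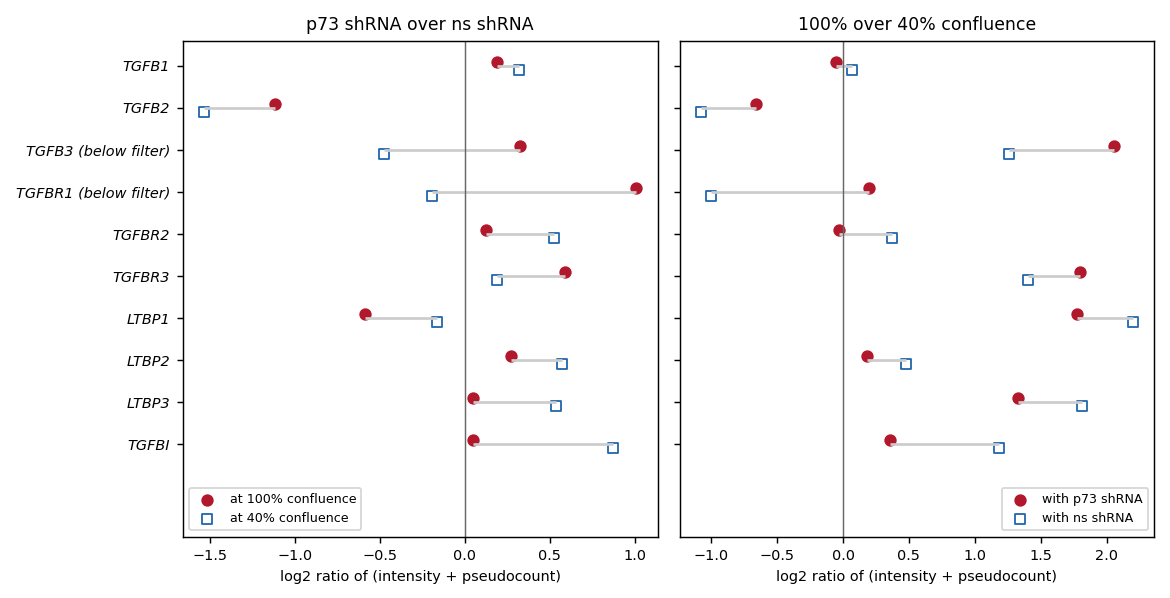
Log2 ratios of the 10 genes by their brightest probe set (horizontal axes), left for p73 over ns shRNA at 100% (red circles) and at 40% confluence (blue squares), right for 100% over 40% confluence with p73 (red circles) and with ns shRNA (blue squares). TGFB2 lies at -1.12 and -1.53 on the left, and LTBP1, LTBP3 and TGFBR3 lie above 1.3 on the right with both hairpins.

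Confluent cells were set against cells at 40% confluence, with the hairpins as repeats. LTBP1, TGFBR3, LTBP3 and TGFBI rose at 100% confluence, TGFB2 fell, and TGFB1, TGFBR2 and LTBP2 did not pass the test. This comparison called 36.6% of all genes, 20.4% higher and 16.1% lower, so 5 of 8 called genes are to be read against a high background, and LTBP3 entered the test through its level at 100%. The median average log2 ratio was 0.55 over the 8 genes and 0.01 over all genes. The direction was the same with both hairpins for 6 of the 8, against 76.2% of all genes. For 4 of the 8 both arrays at 100% lay above both at 40%, which held for 33.7% of all genes, and for 0 of the 8 both lay below, against 30.8% of all genes. RNA integrity, read as the 3′ to 5′ intensity ratio of beta-actin controls, differed as well: the ratio was 1.38 (p73 shRNA) and 1.47 (ns) at 100%, against 1.09 (p73 shRNA) and 1.24 (ns) at 40%. For the GAPDH controls it was 1.02 (p73 shRNA) and 1.02 (ns) at 100%, against 0.979 (p73 shRNA) and 0.935 (ns) at 40%. Its part in these differences was not tested.

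LTBP1 and LTBP3, which couple to TGF-beta, were both brighter on the confluent arrays. LTBP1 had intensities of 788 (p73 shRNA) and 1191 (ns) at 100%, against 223 (p73 shRNA) and 251 (ns) at 40%. Its average log2 ratio was 1.98 (SE 0.19, limma adjusted p 3.02e-23), the 46th highest of 6759 genes. The second LTBP1 probe set gave 0.94 with p73 shRNA and 1.21 with ns shRNA, the same direction at a smaller size. LTBP3 had 306 (p73 shRNA) and 295 (ns) at 100%, against 115 (p73 shRNA) and 75.6 (ns) at 40%, with an average of 1.57 (SE 0.26, limma adjusted p 5.24e-08). Its mean log2 intensity at 40% was 6.71, below the filter of 6.94, so LTBP3 entered the test through the confluent arrays, where it is high, and its call is a description. Without the filter its limma adjusted p was 0.0078. LTBP2, which does not bind latent TGF-beta, averaged 0.33 (SE 0.25, limma adjusted p 0.312): its 248 (p73 shRNA) and 204 (ns) at 100% overlapped with 218 (p73 shRNA) and 143 (ns) at 40%.

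Among the receptors, the co-receptor rose and TGFBR2 did not pass. TGFBR3 had 979 (p73 shRNA) and 647 (ns) at 100%, against 273 (p73 shRNA) and 238 (ns) at 40%, an average log2 ratio of 1.60 (SE 0.19, limma adjusted p 7.82e-15). TGFBR2 had 2065 (p73 shRNA) and 1894 (ns) at 100%, against 2104 (p73 shRNA) and 1462 (ns) at 40%, an average of 0.17 (SE 0.15, limma adjusted p 0.388). Its groups overlapped. TGFBR1 stayed dim on all 4 arrays, with an intensity of 13.1 to 38.2.

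By their used probe sets the 3 ligands each behaved differently with confluence. TGFB2 fell, with 92.7 (p73 shRNA) and 215 (ns) at 100%, against 154 (p73 shRNA) and 466 (ns) at 40%. The ranges of the 2 stages overlap because the hairpins differ, but within each hairpin the confluent array was dimmer, by log2 ratios of -0.66 with p73 shRNA and -1.08 with ns shRNA. The average was -0.87 (SE 0.25, limma adjusted p 0.00276), which was lost without the brightness filter (limma adjusted p 0.0641) and with the hairpin left out of the model (limma adjusted p 0.244). The probe set 220407_s_at, also below the filter, had 58.7 (p73 shRNA) and 51.3 (ns) at 100%, against 138 (p73 shRNA) and 206 (ns) at 40%, and its 2 stages did not overlap. The other TGFB2 probe sets gave -1.26 and -0.19 (209908_s_at, p73 and ns shRNA) and 0.42 and -0.56 (220406_at).

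TGFB1 did not differ beyond its error by the used probe set, with an average log2 ratio of 0.01 (SE 0.18, limma adjusted p 0.978). A second TGFB1 probe set, 203084_at, had 43.6 (p73 shRNA) and 36.5 (ns) at 100%, against 18.8 (p73 shRNA) and 5.31 (ns) at 40%. It lay far below the filter on all 4 arrays, with log2 ratios of 0.86 with p73 shRNA and 1.51 with ns shRNA. With the mean of probe sets TGFB1 averaged 0.60 and did not pass (limma adjusted p 0.079). TGFB3 had 95.7 (p73 shRNA) and 74.0 (ns) at 100%, against 14.2 (p73 shRNA) and 24.2 (ns) at 40%. Both confluent arrays were brighter, with log2 ratios of 2.06 with p73 shRNA and 1.26 with ns shRNA. Without the brightness filter, where TGFB3 could be tested, its average of 1.66 passed with a limma adjusted p of 0.0487. That setting called 1555 of 11963 genes, 912 of them higher. TGFB3 lay below the filter on all 4 arrays, and its 14.2 at 40% was close to the 11.6 added to every value. Values this dim carry little information on the size of a ratio.

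TGFBI rose at 100%, with 5283 (p73 shRNA) and 5110 (ns), against 4117 (p73 shRNA) and 2245 (ns) at 40%. Both confluent arrays lay above both others, and the average log2 ratio was 0.77 (SE 0.14, limma adjusted p 5.98e-07). The ratio was 0.36 with p73 shRNA and 1.18 with ns shRNA, a difference that was not tested. With the hairpin left out of the model the call was lost (limma adjusted p 0.0575).

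The order of the 4 arrays differed among the genes. From highest to lowest, TGFB2 ran ns at 40%, ns at 100%, p73 shRNA at 40% and p73 shRNA at 100%. TGFBR3 and TGFB3 were highest with p73 shRNA at 100%, and LTBP1 was highest with ns shRNA at 100%. With 1 array a group no spread tells neighbours in these orders apart. Among 6758 other genes above the filter, those nearest to TGFB2 by the Euclidean distance of centred log2 values over the 4 arrays were MET, the hepatocyte growth factor receptor (distance 0.27), the Notch ligand JAG1 (0.38), IFRD1 (0.63), PAWR (0.71) and TMEM33 (0.71). MET had 760 (p73 shRNA) and 1453 (ns) at 100%, against 1370 (p73 shRNA) and 3310 (ns) at 40%. Its p73 shRNA log2 ratios were -0.93 at 100% and -1.27 at 40%, beside -1.12 and -1.53 for TGFB2. With 4 arrays, this likeness only describes values.

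**Figure D3:**
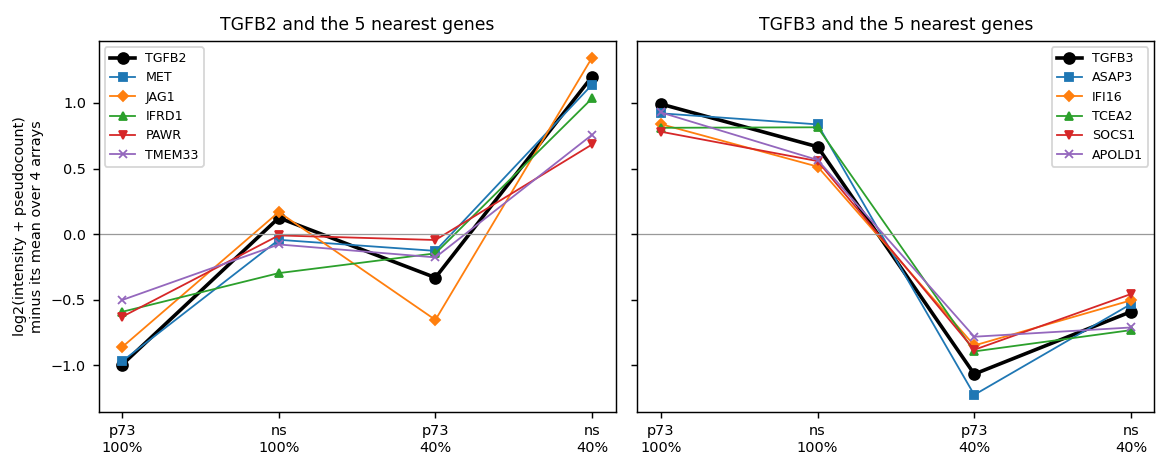
Log2(intensity + pseudocount) minus its mean over the 4 arrays (vertical axis) for TGFB2 (left) and TGFB3 (right), in black, and for the 5 genes nearest to each, by array (horizontal axis). MET and JAG1 lie closest to TGFB2, which is highest with ns shRNA at 40% and lowest with p73 shRNA at 100% confluence.

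Other genes of the pathway were taken from lists by role. With p73 shRNA limma called 0 of 9 cofactors above the filter. It also called 0 of 18 SMADs and their regulators and 0 of 16 genes of latency and activation. In these lists, in that order, 0, 2 and 2 genes had an unadjusted limma p below 0.05, against 922 of all 6759 genes. Of 32 genes that TGF-beta is known to induce in fibroblasts, 8 had an unadjusted limma p below 0.05. After adjustment 3 fell, none rose and 29 did not pass, against 1.58% lower and 1.14% higher among all genes. These were the vasoconstrictor peptide EDN1 (average log2 ratio -1.64, limma adjusted p 9.2e-07), the calponin CNN1 (-0.84, limma adjusted p 0.000834) and the matrix glycoprotein tenascin, TNC (-0.66, limma adjusted p 0.00078). EDN1 had 22.7 and 240 with p73 shRNA at 100% and 40%, against 126 and 596 with ns shRNA. Its mean log2 intensity with p73 shRNA was 6.54, below the filter, so it entered the test through the ns arrays and its ratio is against a value near the floor. Without the filter the calls of EDN1, CNN1 and TNC were lost (limma adjusted p 0.239, 0.220 and 0.262). The TNC call was also lost without the intensity trend (limma adjusted p 0.0995). The list medians were -0.02 for cofactors, -0.16 for SMADs, -0.03 for latency and activation and -0.10 for induced genes.

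With confluence the lists were called more often, as were all genes, of which 20.4% rose and 16.1% fell. Of 16 genes of latency and activation 9 rose, 1 fell and 6 did not pass, with a median of 0.39. DCN, a proteoglycan that binds TGF-beta, was higher by an average of 2.36, the plasminogen activator PLAT by 1.36, the transglutaminase TGM2 by 1.03 and FURIN, the protease that cleaves the TGF-beta precursor, by 0.94. The FURIN call was lost without the brightness filter (limma adjusted p 0.0726). THBS1, a matrix protein that can activate latent TGF-beta, was the 1 that fell, with an average of -0.74.

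Of 9 cofactors 1 rose and 5 fell at 100% confluence, with a median of -0.34. Among all genes 20.4% rose and 16.1% fell. The decoy receptor BAMBI averaged -1.11, PPP1R15A, a phosphatase subunit, -1.01, the receptor-associated protein STRAP -0.51 and the co-receptor endoglin, ENG, -0.49, while the co-receptor NRP1 averaged 0.47. The calls of ENG and NRP1 were lost without the intensity trend (limma adjusted p 0.0517 and 0.0511). Of 18 SMADs and regulators 4 rose and 3 fell, with a median of 0.03. Those that fell were the ubiquitin ligase SMURF2 (-1.19) and the inhibitory SMAD6 (-0.98) and SMAD7 (-0.78). The SMAD6 and SMAD7 calls were lost without the brightness filter (limma adjusted p 0.0745 and 0.0621). Those that rose were SMAD3, a transducer of the pathway (0.85), the ubiquitin ligase TRIM33 (0.90), the co-repressor TGIF1 (0.76) and the co-activator EP300 (0.61). With the mean of probe sets TRIM33 averaged 0.19 and its call was lost (limma adjusted p 0.515). The EP300 call was lost after quantile normalization (limma adjusted p 0.106).

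Genes that TGF-beta is known to induce moved in both directions with confluence: 11 of 32 rose, 10 fell and 11 did not pass, with a median of 0.05. Among all genes 20.4% rose and 16.1% fell. Higher were the transcription factor BHLHE40 (average log2 ratio 2.47), the collagen chain COL3A1 (1.43), the proteoglycan versican, VCAN (1.12), and TSC22D1 (0.98). Lower were the matricellular protein CCN2 (-2.66), EDN1 (-2.51), the stress sensor GADD45B (-1.74) and the sphingosine kinase SPHK1 (-1.44). Of the list genes named for confluence, TGM2, BHLHE40 and VCAN lay below the filter on average at 40%, and SMAD6 and EDN1 at 100%, so each entered the test through the stage where it is high. Of 15 fibroblast markers above the filter, 11 rose at 100% and 2 fell. Their part in the result was not tested.

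**Figure D4:**
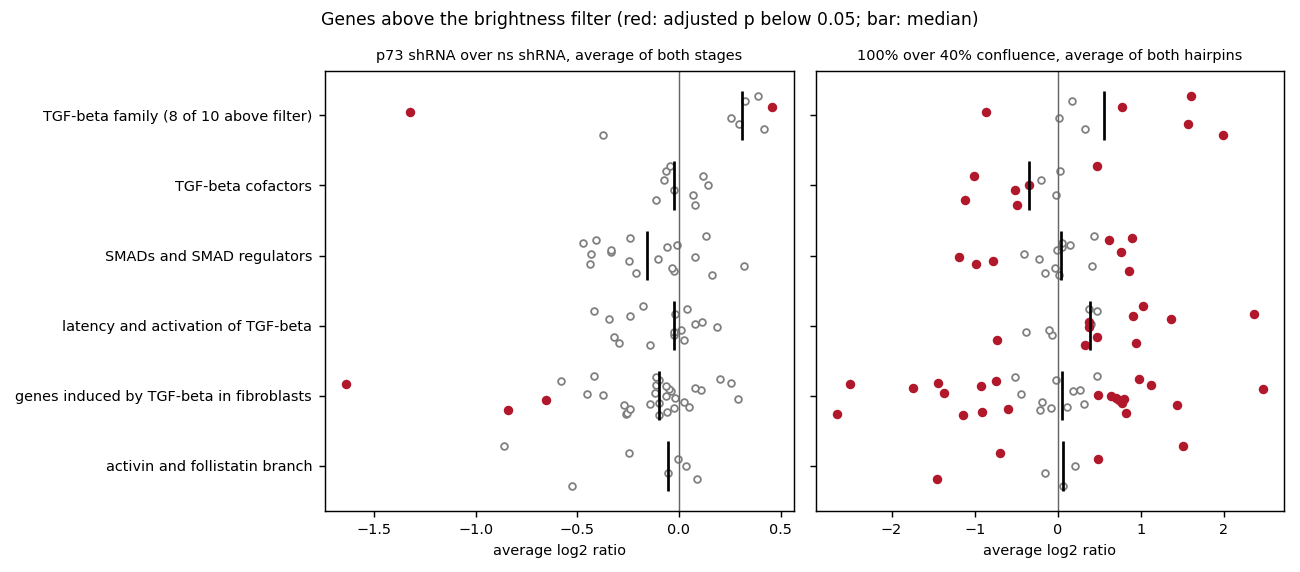
Average log2 ratio (horizontal axes) of the genes above the brightness filter in the TGF-beta family and in 5 lists of the pathway, left for p73 over ns shRNA and right for 100% over 40% confluence; red points had an adjusted p below 0.05 and bars are medians. On the left TGFB2 and TGFBI are red in the family and 3 of 32 induced genes are; on the right points of every list are red on both sides of 0.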

How the data were processed

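Per the labels, trizol was used to extract total RNA of 4 BJ-TE cultures, which was biotin-labelled following Affymetrix's protocol. The deposited table gives 1 intensity per probe set and array, and the sources used here do not name the software that made it. The values are linear with equal trimmed means, so the deposited intensity values were used as already scaled, and a change shared by most genes cannot be seen. Groups came from the sample titles. Of 22277 probe sets 62 were controls; in GEO's annotation 19064 named 1 gene, 1043 several and 2108 none, and Entrez IDs gave 19052 of the first a current RefSeq symbol (GRCh38.p14). Intensities became log2(intensity + 11.6), where 11.6 is their 20th percentile; this understates the ratios of dim genes. Each gene took its brightest probe set, and 6759 of 11963 genes had a mean of at least 6.94, the median of all probe sets.

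Both comparisons used limma 3.58.1 (R 4.3.3) with an additive model of hairpin and confluence, moderation along an intensity trend and Benjamini-Hochberg adjustment over the 6759 genes (two-sided, threshold 0.05). It leaves 1 residual degree of freedom, which is a gene's departure from additive effects of hairpin and confluence. The trend fit took a gene's error from the spread of such departures at its brightness, so p-values may be too small for genes of larger spread. With 1 array a group, no spread between repeat cultures or repeat arrays entered the p-values, and differences between arrays may be technical. The model was tested on simulated data whose errors were drawn from that trend. Such data cannot show whether p-values are too small for genes of larger spread. The text names all members, up to 4 highest and 4 lowest called genes of each pathway list, and the 5 genes nearest to TGFB2 and to TGFB3. ACTG2 and the fibroblast markers LUM, PDGFRA, VIM and THY1 were named after their values were seen. Members and lists were chosen with earlier results of these data known. Figures used matplotlib 3.10.9.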

Additional observations from a re-analysis of the deposited data

Results flagged for a closer look

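At 100% over 40% confluence, 2 of the 8 genes above the filter had log2 ratios of opposite sign with the 2 hairpins. For TGFB1 the ratio was -0.053 with p73 shRNA and 0.072 with ns shRNA. For TGFBR2 it was -0.027 with p73 shRNA and 0.37 with ns shRNA. Each rests on 1 array a group, and the difference between the hairpins was not tested.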

How the results depend on the processing

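The additive model itself compares the hairpins within a stage and the stages within a hairpin. No further pairing was possible because each group has 1 array and no replicate numbers. Leaving out 1 of 4 arrays would leave the additive model no residual degrees of freedom. Of 407 values of members and named list genes under 9 alternatives, 367 kept their direction and their side of the threshold. Another 38 kept the direction and lost the call. Values not called in either fit count as kept. Changing the filter or the trend, testing every probe set or leaving out a factor does not alter a ratio, so its direction could not change there. The sign changed for 2: TGFBR2 with p73 shRNA was -0.013 with the mean of probe sets, and TGFB1 with confluence was -0.058 after quantile normalization. Neither was called in any setting. With p73 shRNA 1 member was higher, TGFBI; the number was 0 after quantile normalization, without the brightness filter, with the mean of probe sets, with every probe set tested, without the intensity trend and with confluence left out. The 1 lower member, TGFB2, became 0 without the filter, with the filter at the 70th percentile and with the mean of probe sets (both of which leave TGFB2 untested), and with confluence left out. The 1 lower member with confluence, again TGFB2, became 0 under the same 3 settings and with the hairpin left out. Of the 3 list genes lower with p73 shRNA, 0 were called without the filter and with confluence left out. With the mean of probe sets 15 list genes were higher with confluence, against 27. Over all genes, p73 shRNA calls numbered 184, and 105 after quantile normalization, 74 without the trend, 40 with the mean of probe sets, 4 without the filter and 0 in limma with confluence left out (58 at an unadjusted p below 0.05). Other causes were not tested. Brightness limits TGFB3 and TGFBR1: below the filter they are not shown to be absent or unchanged.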

Other observations

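In the activin and follistatin branch of the same ligand family, 2 of 7 genes above the filter rose at 100% over 40% confluence. Another 2 fell and 3 did not pass (median log2 ratio 0.06). Among all genes 20.4% rose and 16.1% fell. FST, the secreted activin antagonist follistatin, had intensities of 914 (p73 shRNA) and 870 (ns) at 100%, against 2555 (p73 shRNA) and 2367 (ns) at 40%, an average log2 ratio of -1.45. GDF15, a stress-induced ligand, had 190 (p73 shRNA) and 273 (ns) at 100%, against 43.6 (p73 shRNA) and 117 (ns) at 40%, log2 ratios of 1.87 with p73 shRNA and 1.14 with ns shRNA; its mean at 40% lay below the filter, so it entered the test through the confluent arrays. The type I receptor ACVR1B averaged 0.48, a call lost after quantile normalization (limma adjusted p 0.101), and the type II receptor ACVR2A -0.70, a call lost with the mean of probe sets (limma adjusted p 0.0506). With p73 shRNA limma called 0 of the 7 (median -0.06), and 1 had an unadjusted p below 0.05, as did 922 of all 6759 genes.

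The 5 genes nearest to TGFB3 over the 4 arrays were ASAP3 (distance 0.25), IFI16 (0.32), TCEA2 (0.32), the cytokine signalling inhibitor SOCS1 (0.33) and APOLD1 (0.33). All of them were brighter on both arrays at 100% confluence than on both at 40%, as TGFB3 was. That follows from how they were picked, by likeness to TGFB3 on these same arrays. The values of TGFB3 are dim, and the likeness rests on 4 arrays.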
